A study of Mus musculus with 6 samples.

Results

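The MHC class I presentation genes described here are 9 genes, taken by symbol from the deposited tables: the light chain gene B2m, the heavy chain genes H2-K1, H2-D1 and H2-M3, the peptide loading genes Tap1, Tap2 and Tapbp, the peptide trimming gene Erap1 and the transcriptional regulator gene Nlrc5. They are 9 of 17951 genes listed in at least 1 library, all 9 were listed in every library, and all 9 were among the 12390 genes that passed the filter on low counts. The libraries were made from bone marrow-derived macrophages (BMDMs), primary cells that were grown for 4 to 6 days from marrow of wild-type C57BL/6 mice aged 8 weeks, with L929 conditioned medium as the source of growth factor. In 3 libraries, called the DA group, the cells had DA, read from the series title as the catecholamine dopamine, for 2 h and then Pam3CSK4 for 6 h. Pam3CSK4 is a lipopeptide made to engage the receptor pair TLR2 and TLR1. The other 3 libraries, the Pam3CSK4 group, had the lipopeptide alone, so both groups were stimulated, and cells without Pam3CSK4 or with DA alone were not analysed here. The comparison asks how DA pretreatment altered the transcripts of stimulated macrophages, here those of the class I pathway.

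Depth was nearly equal, from 21337932 to 21518425 expected counts per library. Of 7 macrophage markers, all were tested, 4 fell and 1 rose with DA, near the 64.4% of all genes that were called, and their summed level was 8290.1 to 8886.4 CPM (counts relative to the TMM-scaled library size) in the DA group and 9967.2 to 10402 CPM in the Pam3CSK4 group. Adgre1 had 877.9 ± 79.8 CPM in the DA group and 2094.8 ± 82.7 CPM in the Pam3CSK4 group (SD, n = 3). Csf1r, Itgam and Mertk also fell, Fcgr1 rose 2.69-fold, and Cd68 and Cd14 were not called. Summed dendritic cell markers reached 3.32 to 4.54 CPM in the DA group and 2.45 to 2.88 CPM in the Pam3CSK4 group (7 genes, Cd209a with at most 1 count in any library). That sum was mostly Xcr1, the only one of the 7 that was tested, at 3.17 ± 0.74 CPM in the DA group and 1.45 ± 0.223 CPM in the Pam3CSK4 group (SD, n = 3), while Flt3 and Zbtb46 averaged 0.0604 and 0.165 CPM in the DA group and 0.161 and 0.452 CPM in the Pam3CSK4 group. B cell markers summed to 0.590 to 0.765 CPM in the DA group and 0.721 to 1.06 CPM in the Pam3CSK4 group (5 genes, Pax5 listed nowhere). T and NK cell markers, mostly Cd4, summed to 16.8 to 19.7 CPM in the DA group and 19.3 to 20.99 CPM in the Pam3CSK4 group (7 genes, Cd3g listed nowhere). Neutrophil markers summed to 43.4 to 52.2 CPM in the DA group and 29.4 to 32.8 CPM in the Pam3CSK4 group (6 genes). Mmp8 carried the higher sum, at 29.5 ± 4.26 CPM in the DA group and 8.87 ± 1.06 CPM in the Pam3CSK4 group (SD, n = 3), whereas Camp fell and Ltf, Mpo and Elane had log2 fold changes of -0.18, -0.36 and -0.14 without a call. Stromal markers summed to 815.5 to 891.8 CPM and 949.4 to 1000.3 CPM in the same order of groups (5 genes). Pdgfrb had 18.5 ± 1.565 CPM in the DA group and 48.8 ± 2.27 CPM in the Pam3CSK4 group (SD, n = 3). Col1a2 fell at a log2 fold change of -0.195, and Col1a1, Dcn and Col3a1 were not called. The part of these cells in the results was not tested, and in such bulk libraries fewer cells of a type and less RNA per cell cannot be told apart.

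MHC class I molecules show peptides from proteins made inside a cell to CD8 T cells and natural killer cells. The proteasome cuts proteins into peptides, the transporter made of TAP1 and TAP2 carries them into the endoplasmic reticulum, the aminopeptidase ERAP1 trims them, and tapasin helps load them onto a heavy chain paired with the light chain that B2m encodes. Macrophages express this pathway at all times and raise it when interferons act through IRF1 and NLRC5 on class I promoters.

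Promoters of 7 of the 9 genes were in the RefSeq table of GRCm38.p6, each as 250 bases before and 50 bases after a start site. The 3 heavy chain promoters and that of B2m are shown because their genes moved differently while sharing sequence elements, and that of Erap1 because Erap1 had the steepest fall among the 9. Capitals mark matches, on either strand, to an interferon response element core (GAAANNGAA, or GAANNGAAA, an order added after the sequences were seen), the kappaB consensus, the CCAAT box (CCAAT) and the first bases of a cyclic AMP response element (TGACG). The full element TGACGTCA, which holds TGACG within it, was searched too. The windows are chr2:122147437-122147736 for B2m and chr13:74639603-74639902 for Erap1 on the plus strand, chr17:34000298-34000597 for H2-K1 on the minus strand, and chr17:35262844-35263143 for H2-D1 and chr17:37269984-37270283 for H2-M3 on the plus strand, all written 5′ to 3′.
H2-K1: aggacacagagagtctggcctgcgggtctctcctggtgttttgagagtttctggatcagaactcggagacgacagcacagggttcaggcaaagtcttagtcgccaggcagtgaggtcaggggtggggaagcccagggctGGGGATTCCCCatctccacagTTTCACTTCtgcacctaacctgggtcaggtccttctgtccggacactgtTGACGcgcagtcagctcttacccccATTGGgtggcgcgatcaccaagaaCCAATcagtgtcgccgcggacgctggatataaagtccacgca
H2-D1: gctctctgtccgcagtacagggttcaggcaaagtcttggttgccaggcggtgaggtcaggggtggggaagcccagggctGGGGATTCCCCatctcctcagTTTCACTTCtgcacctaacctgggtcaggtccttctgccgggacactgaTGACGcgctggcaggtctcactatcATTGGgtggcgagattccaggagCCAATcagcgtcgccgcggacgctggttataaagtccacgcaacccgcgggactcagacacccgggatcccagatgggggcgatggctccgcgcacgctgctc
H2-M3: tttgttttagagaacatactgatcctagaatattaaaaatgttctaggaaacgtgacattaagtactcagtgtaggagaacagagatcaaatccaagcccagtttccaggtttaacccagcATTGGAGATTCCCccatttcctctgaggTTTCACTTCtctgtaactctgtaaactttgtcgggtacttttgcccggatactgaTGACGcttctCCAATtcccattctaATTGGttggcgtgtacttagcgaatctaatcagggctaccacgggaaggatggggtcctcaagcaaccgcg
B2m: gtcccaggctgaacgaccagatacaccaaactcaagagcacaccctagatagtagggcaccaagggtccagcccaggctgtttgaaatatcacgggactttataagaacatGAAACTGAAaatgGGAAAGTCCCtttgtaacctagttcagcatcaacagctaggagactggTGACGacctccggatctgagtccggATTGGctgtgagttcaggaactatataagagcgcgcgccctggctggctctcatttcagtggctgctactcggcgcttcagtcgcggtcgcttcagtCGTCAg
Erap1: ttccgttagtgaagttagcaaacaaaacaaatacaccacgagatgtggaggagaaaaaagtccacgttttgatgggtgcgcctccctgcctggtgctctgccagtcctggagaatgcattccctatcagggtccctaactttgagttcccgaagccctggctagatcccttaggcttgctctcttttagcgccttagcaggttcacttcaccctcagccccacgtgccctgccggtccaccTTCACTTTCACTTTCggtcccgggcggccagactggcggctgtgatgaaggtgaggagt

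In H2-K1 and H2-D1 the same elements stood in the same order: the kappaB consensus, the response element core, TGACG, and a CCAAT box on the minus and then on the plus strand. Over 227 aligned bases, 206 were identical between these promoters (90.7%). The H2-M3 promoter held the same kinds of element and matched that of H2-K1 at 171 of 228 aligned bases (75.0%). TGACG was found in 5 of the 7 member promoters and in 21% of 27025 promoters of the same length, and the kappaB consensus in 4 of 7 against 8.2% of all. The CCAAT box was in 6 of 7 members and 37.9% of all promoters. GAAANNGAA was in B2m and Erap1 and in 8.6% of all promoters, GAANNGAAA in H2-K1, H2-D1 and H2-M3 and in 7.6% of all, and TGACGTCA in no member and 1.9% of all. A match describes these letters only and is not evidence of a binding site.

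The classical heavy chain transcripts H2-K1 and H2-D1 were slightly more abundant with DA, while H2-M3, Erap1 and Nlrc5 were less abundant and the light chain, TAP transporter and tapasin transcripts were called neither way. Of the 9 genes, 2 rose (H2-K1 and H2-D1) and 3 fell (H2-M3, Erap1 and Nlrc5) in edgeR's quasi-likelihood fit, with Benjamini-Hochberg adjusted p-values over 12390 genes and a threshold of 0.05. Over all genes tested, 64.4% were called, 32.6% higher and 31.8% lower, so 5 calls among 9 genes are no more than the background share. None of the 9 changed 2-fold, as 14.8% of all genes did. The largest change among them was 0.569 on the log2 scale, in Erap1, and 7 of the 9 moved less than the median absolute change of all genes, which was 0.376. The median log2 fold change was 0.038 over the 9 and 0.020 over all genes tested. Upper-quartile factors shifted the all-gene median by 0.115 on the log2 scale, and the calls over all genes became 5055 higher and 3138 lower, against 4043 and 3938 in the TMM fit. With those factors, and also on FPKM values, B2m and Tapbp were called higher and Nlrc5 lost its call, so 4 of the 9 were higher and 2 lower.

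**Figure D1:**
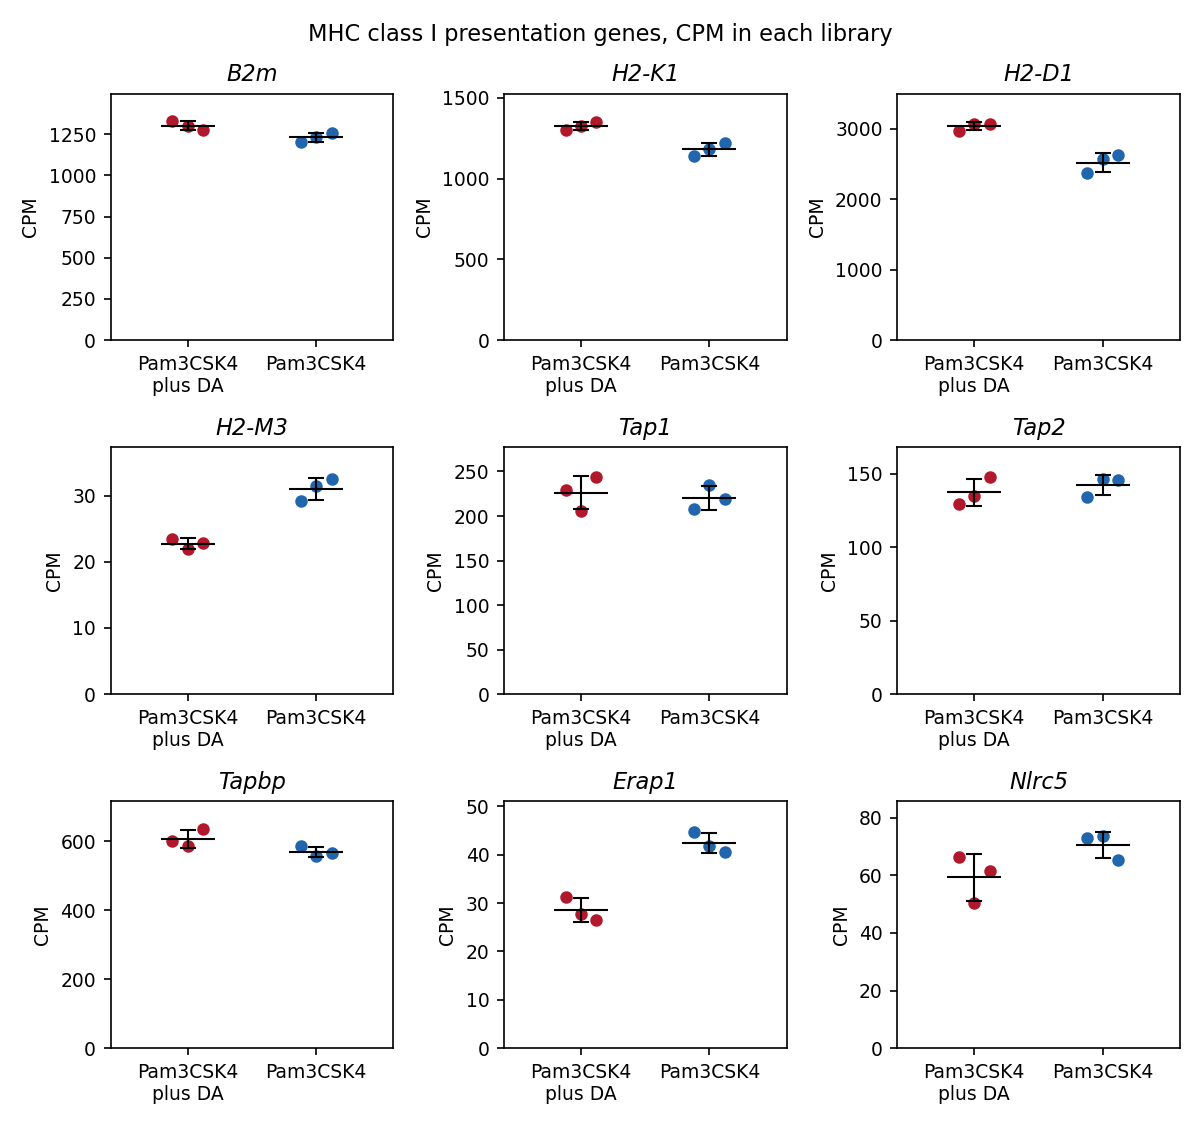
CPM of the 9 genes in each library, with a panel for each gene and a vertical axis that starts at 0. Points are libraries, and the bar with whiskers is the mean ± SD (n = 3). H2-K1 and H2-D1 lie higher in every DA library and H2-M3 and Erap1 lower, while the Tap1, Tap2 and Nlrc5 groups overlap. B2m and Tapbp, which were not called, also lie higher in every DA library, by a narrow gap. Over all genes tested, 68.7% had groups that did not overlap.

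B2m, on chromosome 2 from 122147686 to 122153083 in GENCODE's GRCm38 annotation, encodes the light chain that every classical class I heavy chain needs to reach the surface. It had 1330.5, 1299.1 and 1276.8 CPM in the DA libraries, against 1202.9, 1235.0 and 1257.1 CPM in the Pam3CSK4 libraries. The lowest DA library lay above the highest Pam3CSK4 library, yet the gap between them was small beside the difference between libraries of 1 group. The log2 fold change was 0.080 (SE 0.047, 95% interval -0.021 to 0.181), and edgeR gave an adjusted p of 0.15. B2m was called higher with upper-quartile factors (log2 fold change 0.195, edgeR adjusted p = 0.00297) and on log2(FPKM + 1) with limma (0.169, adjusted p = 0.0123), so its call depended on the scaling. In 6 of the 9 genes, B2m among them, the CPM of the groups did not overlap, 4 higher and 2 lower, where 68.7% of all genes tested had groups that did not overlap, 34.7% higher and 34.0% lower.

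H2-K1 (chromosome 17, 33996017 to 34000347) encodes the classical class I heavy chain K. Its level was 1303.7, 1328.1 and 1352.9 CPM in the DA libraries and 1139.4, 1183.9 and 1219.2 CPM in the Pam3CSK4 libraries. All 3 DA values stood above all Pam3CSK4 values. H2-K1 rose 1.13-fold with DA (log2 fold change 0.17, SE 0.048; edgeR adjusted p = 0.0068).

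H2-D1 (chromosome 17, 35262730 to 35267499) encodes the classical heavy chain D and was the most abundant of the 9 in CPM. The DA libraries held 2971.7, 3063.7 and 3072.4 CPM of H2-D1, against 2375.8, 2566.6 and 2622.7 CPM in the Pam3CSK4 libraries. The groups were well apart, and Pam3CSK4 replicate 1 was the lowest library for B2m, H2-K1 and H2-D1. H2-D1 rose 1.20-fold (log2 fold change 0.27, SE 0.051; edgeR adjusted p = 0.000339). It rose under each of the 16 other settings of the fit, between 0.223 and 0.383 on the log2 scale, and H2-K1 between 0.14 and 0.285.

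Reads of these heavy chain genes are partly shared, so their separate values are uncertain. Of the distinct 50-base words in GENCODE transcripts, 12.8% of those of H2-D1 and 9.6% of those of H2-K1 also occurred in transcripts of other genes, 5.4% of the H2-D1 words in H2-K1 and 4.1% of the H2-K1 words in H2-D1. The sources used here do not give the read length. Expected counts of B2m, Erap1 and Nlrc5 were whole numbers in 6 of 6 libraries, and those of the 3 heavy chains, Tap1, Tap2 and Tapbp in none. With H2-K1 and H2-D1 summed before the fit, the pair had 4275.4, 4391.8 and 4425.2 CPM in the DA libraries and 3515.2, 3750.4 and 3841.9 CPM in the Pam3CSK4 libraries. The sum rose 1.18-fold (log2 fold change 0.237, SE 0.049; edgeR adjusted p = 0.000716). Summing all 24 listed H2 heavy chain rows, a choice made after seeing the files, gave 1.20-fold (log2 fold change 0.265, edgeR adjusted p = 0.00026).

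H2-M3 (chromosome 17, 37270220 to 37274484) encodes a nonclassical heavy chain that presents peptides with a formylated methionine, as bacteria and mitochondria make them. It was present at 23.5, 21.9 and 22.9 CPM in the DA libraries and at 29.2, 31.4 and 32.5 CPM in the Pam3CSK4 libraries. Every DA library was below every Pam3CSK4 library, the reverse of H2-K1 and H2-D1. H2-M3 fell 1.36-fold (log2 fold change -0.45, SE 0.069; edgeR adjusted p = 5.26e-05), and only 0.6% of its 50-base words occurred in another gene.

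**Figure D2:**
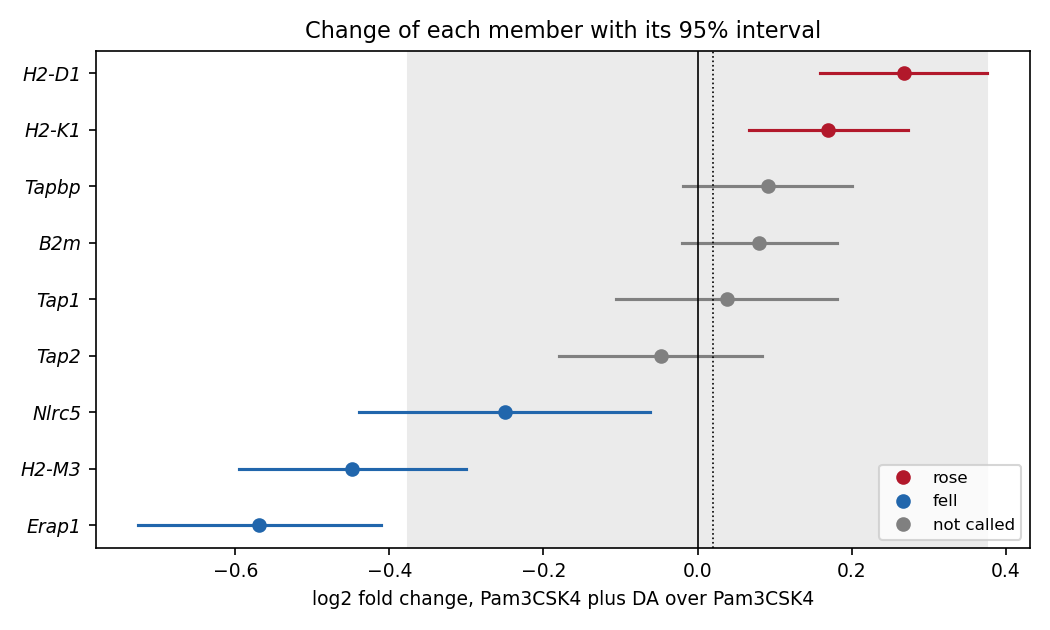
Log2 fold change of each of the 9 genes, DA group over Pam3CSK4 group, on the horizontal axis, with its 95% interval from the edgeR fit. Red points rose, blue points fell and grey points were not called. The grey band spans the median absolute change of all genes, 0.376, and the dotted line is the median of all genes, 0.020. H2-M3 and Erap1 lie outside the band.

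Tap1 and Tap2 encode the subunits of the peptide transporter and lie close together on chromosome 17, Tap1 from 34187553 to 34197225 and Tap2 from 34203527 to 34216321, with the immunoproteasome genes Psmb9 and Psmb8 beside them. Tap1 had 229.6, 206.0 and 243.4 CPM in the DA libraries, against 207.5, 234.5 and 219.5 CPM in the Pam3CSK4 libraries. Tap2 had 129.6, 134.9 and 147.6 CPM in the DA libraries, against 134.2, 146.4 and 145.5 CPM in the Pam3CSK4 libraries. For both genes the groups overlapped throughout. The log2 fold change of Tap1 was 0.038 (95% interval -0.106 to 0.181; edgeR adjusted p = 0.642), and that of Tap2 was -0.048 (-0.180 to 0.084; adjusted p = 0.512 by the same test). The interval of Tap1 in folds ran from 0.929 to 1.13 and that of Tap2 from 0.883 to 1.06, so the data leave room for changes up to these sizes. Neither sign was stable: Tap1 was at -0.012 without DA replicate 3 and -0.0079 without Pam3CSK4 replicate 1, and Tap2 was at 0.067 with upper-quartile factors. Expected counts of Tap1 and Tap2 were fractional in each library, while their sum was whole in 6 of 6 (within 0.005). The Tap1 and Psmb9 gene models run in opposite directions and overlap by 212 bases, and reads from the overlap cannot be told apart where strand was not used. Expected counts of Psmb9 were whole, at 755, 780 and 837 in the DA libraries and 508, 621 and 598 in the Pam3CSK4 libraries. Whether reads of the overlap were shared was not tested.

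Tapbp (chromosome 17, 33915899 to 33929292) encodes tapasin, which bridges TAP and the empty class I molecule. Its level was 598.95, 584.7 and 633.9 CPM in the DA libraries and 584.1, 556.0 and 566.3 CPM in the Pam3CSK4 libraries. The groups just missed each other, with the lowest DA library almost level with the highest Pam3CSK4 library. The log2 fold change was 0.091 (SE 0.051, 95% interval -0.018 to 0.200; edgeR adjusted p = 0.132). Tapbp was called higher with upper-quartile factors (0.206, adjusted p = 0.00226 in edgeR) and on log2(FPKM + 1) with limma (0.178, adjusted p = 0.00654).

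Erap1 (chromosome 13, 74639568 to 74693201) encodes the endoplasmic reticulum aminopeptidase that trims peptides to the length class I molecules bind. It reached 31.3, 27.8 and 26.5 CPM in the DA libraries, against 44.6, 41.8 and 40.6 CPM in the Pam3CSK4 libraries. The groups were far apart relative to the spread within them. Erap1 fell 1.48-fold (log2 fold change -0.57, SE 0.073; edgeR adjusted p = 1e-05), and it fell under all 16 other settings, between -0.639 and -0.432.

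Nlrc5 (chromosome 8, 94434356 to 94527272) encodes the transactivator that drives class I promoters together with RFX, CREB-family and NF-Y factors. Nlrc5 had 66.3, 50.2 and 61.5 CPM in the DA libraries and 72.8, 73.7 and 65.3 CPM in the Pam3CSK4 libraries. The groups overlapped, since the highest DA library exceeded the lowest Pam3CSK4 library, and DA replicate 2 was the lowest of the 6. Nlrc5 was called lower, 1.19-fold (log2 fold change -0.25, SE 0.088; edgeR adjusted p = 0.022). The call was lost without DA replicate 2 (-0.151, edgeR adjusted p = 0.0803), without Pam3CSK4 replicate 2 (-0.222, edgeR adjusted p = 0.0788), with upper-quartile factors (-0.137, edgeR adjusted p = 0.147) and on log2(FPKM + 1) with limma (-0.151, adjusted p = 0.17). Its coefficient of variation in the DA group, 13.9%, was the highest among the 9 genes, which ranged from 1.84% for H2-D1 upward in that group.

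Levels of different genes were compared in FPKM, which divides by transcript length. In the DA group H2-D1 stood first at a mean of 1805.0 FPKM (1767.5 to 1836.8 over 3 libraries), ahead of B2m at 1601.7 FPKM (1556.8 to 1637.1), without overlap. In the Pam3CSK4 group B2m (1424.4 ± 20.7 FPKM) and H2-D1 (1409.5 ± 62.8 FPKM; SD, n = 3) overlapped, so their order is not resolved there. H2-K1 followed in both groups, at 822.1 ± 12.9 FPKM in the DA group and 687.2 ± 17.8 FPKM in the Pam3CSK4 group (SD, n = 3). Tapbp, Tap1, Tap2 and H2-M3 came next in that order in both groups, from 225.7 down to 16.6 FPKM in the DA group and from 199.3 down to 21.2 FPKM in the Pam3CSK4 group, with no overlap between neighbours. Nlrc5 and Erap1 were the lowest, at 8.68 and 7.25 FPKM in the DA group and 9.71 and 10.1 FPKM in the Pam3CSK4 group, and their libraries overlapped in each group. By mean FPKM over the 6 libraries H2-D1 ranked 29 and B2m 32 among 17951 genes, while Nlrc5 ranked 5147 and Erap1 5302. The 9 genes together took 0.696% ± 0.0055 of all expected counts in the DA group and 0.582% ± 0.0153 in the Pam3CSK4 group (SD, n = 3). B2m, H2-K1 and H2-D1 alone made 0.584% and 0.478% in the same order of groups. These shares are not TMM-scaled. With that scaling the 9 genes summed to 6685.1 to 6837.8 CPM in the DA group and 5790.6 to 6168.6 CPM in the Pam3CSK4 group.

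Ratios within a library do not depend on how libraries are scaled, and 9 ratios of FPKM were tested by exact permutation (two-sided, 20 assignments), where p cannot go below 0.1. No ratio could therefore pass 0.05, and the adjusted p of those at the smallest value was 0.129. H2-D1 stood at 1.08, 1.14 and 1.16 times B2m in the DA libraries, against 0.955, 1.0 and 1.01 times in the Pam3CSK4 libraries (exact p = 0.1). H2-K1 stood at 0.493, 0.514 and 0.533 times B2m in the DA libraries and at 0.477, 0.482 and 0.488 times in the Pam3CSK4 libraries (exact p = 0.1). In both ratios the groups did not overlap, and the heavy chains were the higher relative to the light chain in the DA group. How often ratios of other gene pairs separate was not measured. The groups of 68.7% of all single genes tested did not overlap in CPM. The ratio of H2-K1 to H2-D1 was 0.455 ± 0.0037 in the DA group and 0.488 ± 0.0101 in the Pam3CSK4 group (SD, n = 3; exact p = 0.1). Tap1 over Tap2 was 1.39 ± 0.103 in the DA group and 1.31 ± 0.0395 in the Pam3CSK4 group (SD, n = 3; exact p = 0.3), and Tapbp over Tap1 was 2.88 ± 0.143 and 2.78 ± 0.239 in the same order of groups (SD, n = 3; exact p = 0.4), with overlap in both.

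**Figure D3:**
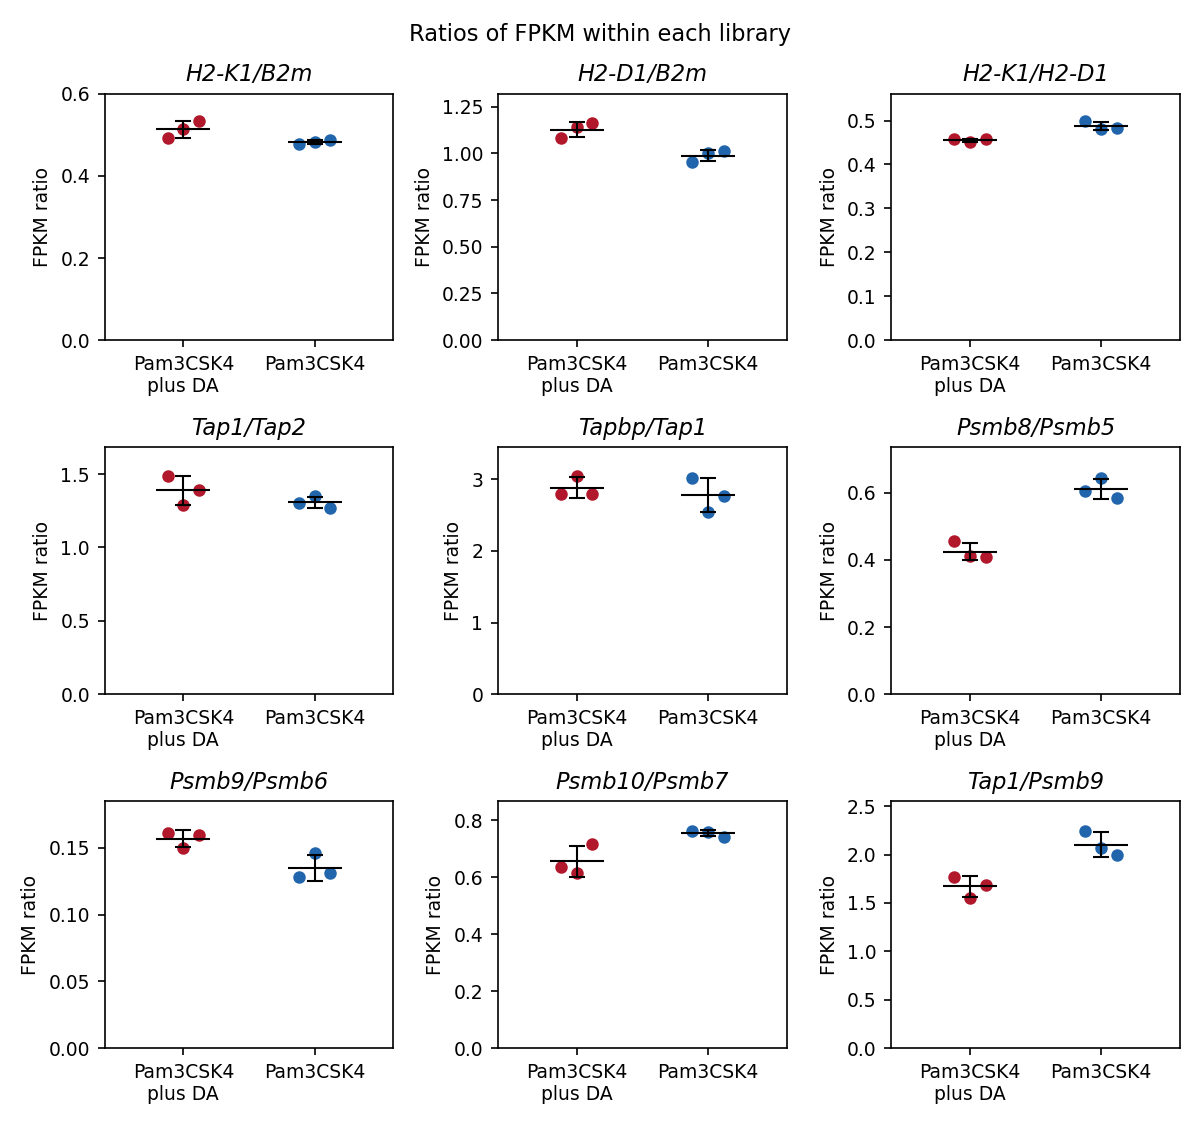
FPKM ratio of a pair of genes in each library, with a panel for each of 9 ratios and a vertical axis that starts at 0. Points are libraries, and the bar with whiskers is the mean ± SD (n = 3). The H2-K1/B2m, H2-D1/B2m and Psmb9/Psmb6 ratios are higher in every DA library, the H2-K1/H2-D1, Psmb8/Psmb5, Psmb10/Psmb7 and Tap1/Psmb9 ratios are lower in every DA library, and the other 2 overlap.

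Of 19 other class I and class I-like heavy chain genes, 13 were tested, 8 rose and 2 fell with DA, with a median log2 fold change of 0.705 over those tested. This count, and those of the lists that follow, stand beside 32.6% higher and 31.8% lower over all genes. With H2-T9, H2-T10 and H2-T22 summed into 1 row, 6 were higher and 2 lower. Sharing of words by H2-T9 was not measured. H2-T22, a nonclassical heavy chain gene known for ligands of gamma delta T cells, had 221.7, 196.6 and 228.5 CPM in the DA libraries, against 82.6, 91.7 and 87.8 CPM in the Pam3CSK4 libraries, and rose 2.47-fold (log2 fold change 1.30, SE 0.066; edgeR adjusted p = 4.97e-10). H2-T10 shares 31.7% of its 50-base words with H2-T22, so both are uncertain, and H2-T9, H2-T10 and H2-T22 summed, a choice made after seeing the files, rose 2.35-fold. Cd1d1, which presents lipids to natural killer T cells, rose 3.10-fold (edgeR adjusted p = 3.07e-09). H2-Q4 rose 1.63-fold and shares 21.8% of its words with other genes. H2-T23, the mouse Qa-1 gene, whose product is seen by inhibitory receptors of natural killer cells, rose 1.29-fold. H2-M2 fell 2.93-fold (edgeR adjusted p = 3.29e-10) and H2-T24 fell 1.29-fold. H2-K2, annotated by GENCODE as a transcribed unprocessed pseudogene near H2-K1, was chosen after its values were seen. It had 11.7, 11.6 and 13.6 CPM in the DA libraries, against 1.92, 1.97 and 1.85 CPM in the Pam3CSK4 libraries (log2 fold change 2.68, SE 0.124). Other genes share 9.4% of the H2-K2 words, with 5.6% in Gm11127, 4.5% in H2-T22 and 3.5% in H2-Q4, so its level is uncertain too.

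Genes that cut the peptides moved in both directions. The immunoproteasome is a form of the proteasome with inducible catalytic subunits. Of 8 listed genes for these subunits, proteasome activators and an assembly factor, 2 rose and 3 fell (median log2 fold change -0.071). That share of calls is close to the 64.4% over all genes. Psmb9, the catalytic subunit gene next to Tap1, had 34.3, 35.1 and 38.0 CPM in the DA libraries, against 24.4, 29.9 and 29.2 CPM in the Pam3CSK4 libraries, and rose 1.29-fold (edgeR adjusted p = 0.00121). The assembly factor gene Pomp rose 1.27-fold (edgeR adjusted p = 7.14e-05). Psmb10 fell 1.31-fold and the proteasome activator gene Psme2 fell 1.31-fold, though 28.3% of the Psme2 words are shared with Psme2b. Psmb8 (log2 fold change 0.084, edgeR adjusted p = 0.255) and the activator gene Psme1 (-0.136, edgeR adjusted p = 0.0708) were not called. Among the 3 constitutive catalytic subunits that these replace, Psmb5 rose 1.53-fold (edgeR adjusted p = 4.58e-06) and Psmb7 fell 1.14-fold, a call lost without Pam3CSK4 replicate 2 (-0.171), with upper-quartile factors (-0.070) and on FPKM. The ratio of Psmb8 to Psmb5 was 0.425 ± 0.0262 in the DA group and 0.612 ± 0.0307 in the Pam3CSK4 group (SD, n = 3; exact p = 0.1). Psmb10 over Psmb7 was 0.656 ± 0.0531 in the DA group and 0.755 ± 0.0106 in the Pam3CSK4 group (SD, n = 3; exact p = 0.1), while Psmb9 over Psmb6 was 0.157 ± 0.0059 and 0.135 ± 0.0097 in the same order of groups (SD, n = 3; exact p = 0.1). Tap1 over its neighbour Psmb9 was 1.67 ± 0.11 in the DA group and 2.10 ± 0.131 in the Pam3CSK4 group (SD, n = 3; exact p = 0.1).

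Chaperones that fold and load class I molecules were mostly higher with DA. Of 8 genes 5 rose and 1 fell, with a median log2 fold change of 0.566. Calr, which encodes the peptide loading chaperone calreticulin, had 1830, 1799 and 1920 CPM in the DA libraries, against 934.5, 929.02 and 975.7 CPM in the Pam3CSK4 libraries, and rose 1.95-fold (log2 fold change 0.97, SE 0.049; edgeR adjusted p = 5.25e-10). Pdia3, whose disulfide isomerase product is bound to tapasin in the loading complex, rose 1.71-fold, and the peptide editor gene Tapbpl rose 1.41-fold. Canx, which encodes the chaperone calnexin that receives new heavy chains, was at a log2 fold change of 0.118 (95% interval -0.00094 to 0.236; edgeR adjusted p = 0.0762). Hsp90b1 rose 1.67-fold, and Uggt1, a glycoprotein folding sensor that returns class I molecules for another round of loading, fell 1.27-fold. The endoplasmic reticulum members of this list serve many other secreted proteins.

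Peptidases that trim or destroy class I peptides outside the endoplasmic reticulum were divided: of 8 genes, 4 fell, 1 rose and 3 were not called (median log2 fold change -0.177), where 64.4% of all genes were called. Lnpep, which encodes an endosomal aminopeptidase related to ERAP1, had 16.4, 13.1 and 15.1 CPM in the DA libraries, against 49.4, 37.4 and 33.2 CPM in the Pam3CSK4 libraries, and fell 2.68-fold (edgeR adjusted p = 2.73e-07). Blmh, the bleomycin hydrolase gene, fell 1.59-fold. Ide, which encodes the insulin degrading enzyme, rose 1.20-fold (0.261 on the log2 scale), and its call was lost without DA replicate 1 (0.230), DA replicate 3 (0.206) or Pam3CSK4 replicate 2 (0.192). Among 10 genes of cross-presentation, the route by which taken-up proteins reach class I molecules, 5 rose and 3 fell (median 0.268). Sec22b, a vesicle fusion gene, rose 1.69-fold and Sec61g, a translocon subunit gene, rose 1.66-fold. Wdfy4, which dendritic cells need for cross-presentation, fell 2.27-fold and Rab11a, a recycling endosome gene, fell 1.33-fold.

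**Figure D4:**
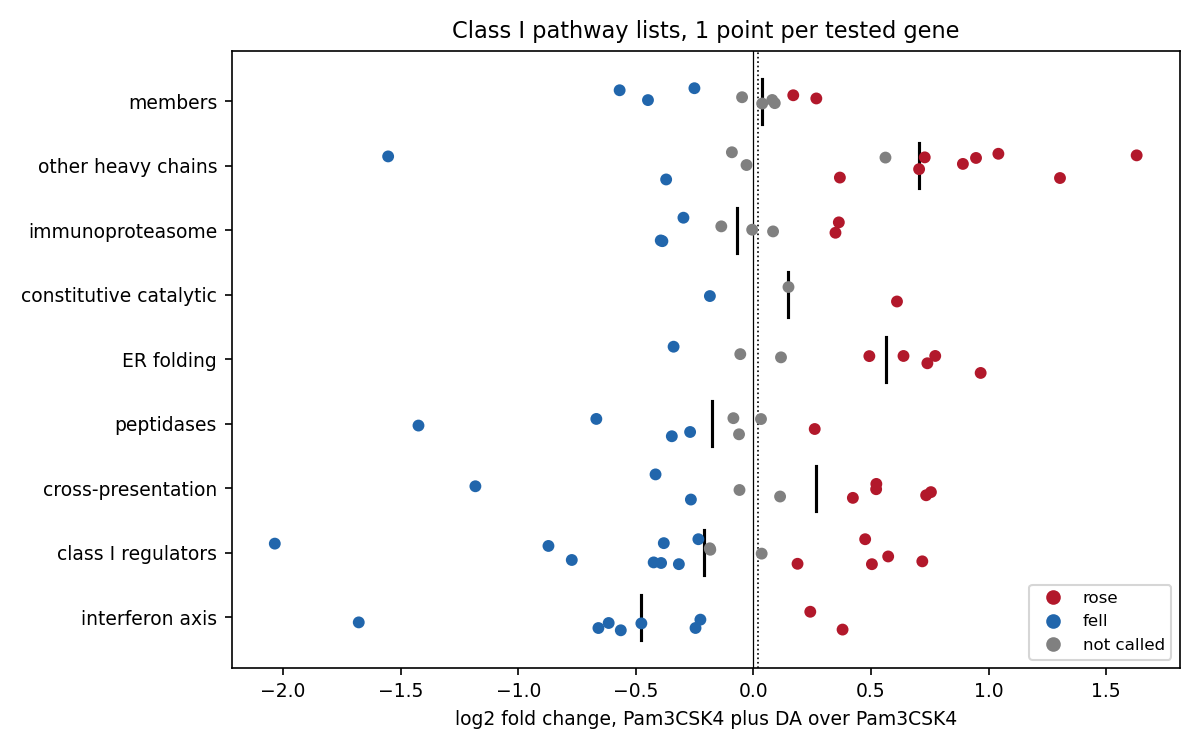
Log2 fold change, DA group over Pam3CSK4 group, of each tested gene in the 9 lists, with 1 point a gene and the lists on the vertical axis. Red points rose, blue points fell and grey points were not called. Black bars are list medians and the dotted line is the median of all genes, 0.020. The median of the 9 members is near 0, though Erap1 and H2-M3 lie to the left, with other heavy chains and endoplasmic reticulum folding genes mostly to the right and the interferon axis mostly to the left.

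Transcription factors of class I promoters were divided, with 8 of 16 lower, 5 higher and a median log2 fold change of -0.210. On FPKM with limma 5 of them were lower. Nfkb1, whose product can bind the kappaB element shown above, fell 4.10-fold, and Irf1, which binds the response element, had 48.2, 48.4 and 44.2 CPM in the DA libraries, against 76.0, 80.1 and 84.4 CPM in the Pam3CSK4 libraries. Irf1 fell 1.71-fold (log2 fold change -0.77, SE 0.063; edgeR adjusted p = 8.63e-08). The RFX subunit gene Rfxap rose 1.65-fold, as did the CREB-family gene Atf1 by 1.42-fold.

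Genes of the interferon axis were lower in 7 of 9 tested cases and higher in 2 (median log2 fold change -0.476). Jak2, a kinase of the interferon gamma receptor, fell 3.20-fold and the receptor gene Ifngr2 fell 1.53-fold, whereas Stat2 rose 1.30-fold and Irf9, its partner in the response to type I interferon, rose 1.18-fold. Ifnb1, the interferon beta gene, was too low to be tested, with 1, 1 and 0 counts in the DA libraries and 7, 7 and 10 counts in the Pam3CSK4 libraries.

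The genes whose pattern lay nearest to that of Nlrc5 over the 6 libraries were Slc7a1, Ifit1, Ifit2, Ddx58 and Kmt2e. Nearness was the Euclidean distance between centred log2(CPM + 0.5) values. The pool was 8695 genes that averaged 5 CPM or more, with predicted and unnamed genes left out. Their distances were 0.085 to 0.128 and their log2 fold changes -0.332 to -0.161. The distance includes the group difference, so near genes have similar fold changes by construction. For Tap1 the nearest were Tceanc2, Nt5c2, Elp3, Rae1 and Trit1, at distances of 0.064 to 0.083.

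**Figure D5:**
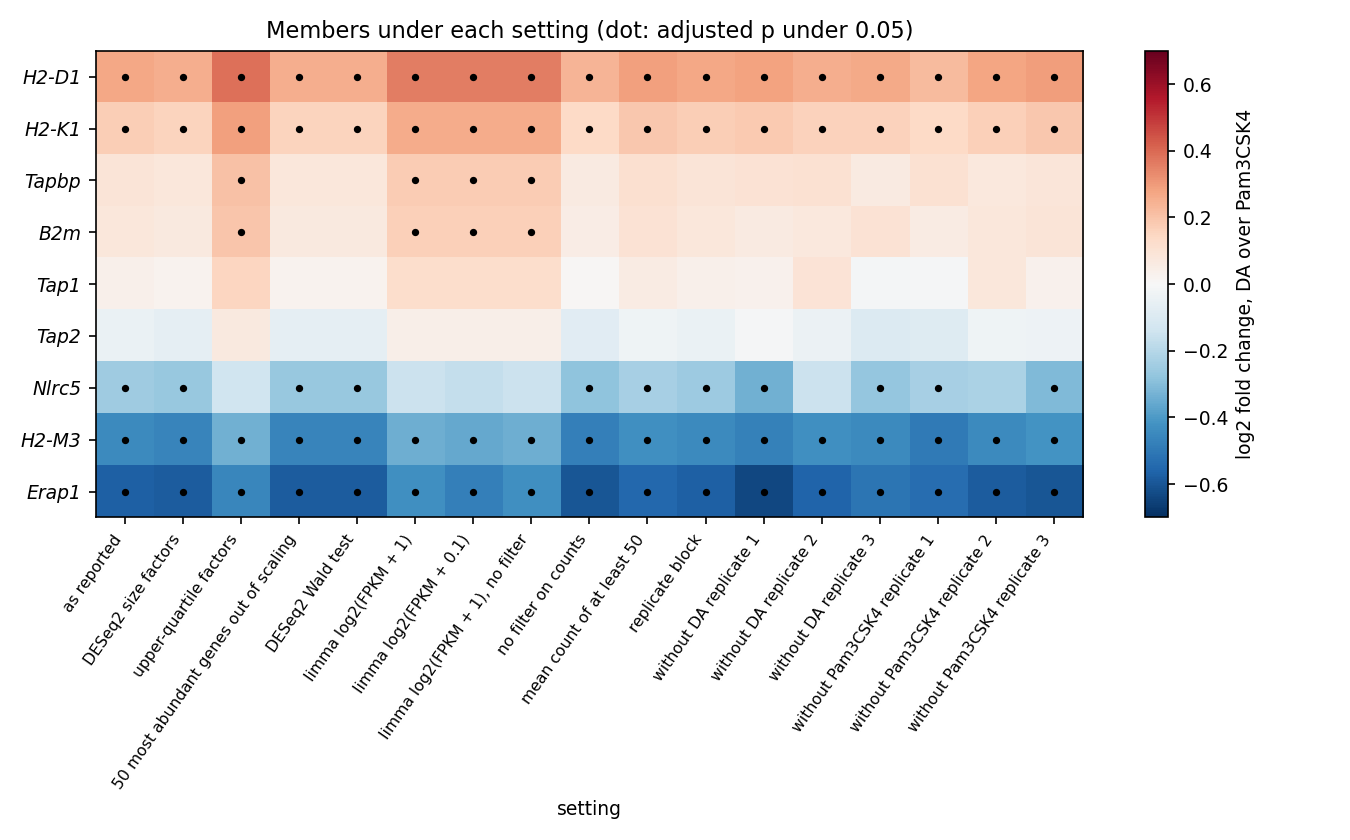
Log2 fold change of the 9 genes (vertical axis) under the reported fit and 16 other settings (horizontal axis), as colour from -0.7 (blue) to 0.7 (red), DA group over Pam3CSK4 group. A dot marks an adjusted p under 0.05. H2-D1, H2-K1, H2-M3 and Erap1 carry a dot in every column, Tapbp and B2m in 4 columns, Tap1 and Tap2 in none, and Nlrc5 loses its dot in 6 of the 16 other columns.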

How the data were processed

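Expected counts are, per the file headers, the authors' estimates of reads per gene, not normalized, and the deposited FPKM values were scaled by the authors to transcript length and library size. Bowtie2 2.2.5 and GRCm38.p5 stand in the submitters' processing notes, and the quantifier is not given in the sources used here. Each deposited file lists genes with an FPKM of at least 0.01 and a length in bases, and genes missing from a file were taken as 0. Groups came from sample titles (another label of the DA libraries ends the ligand's name in other digits). The labels do not say that replicates were separate mice or cultures, so p-values reflect only how these libraries vary, which may be technical.

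Expected counts were rounded, edgeR 4.0.16 removed 5561 genes with filterByExpr, and TMM factors scaled the rest. The quasi-likelihood test compared 3 DA with 3 Pam3CSK4 libraries, adjusted over 12390 genes at 0.05. A log2 fold change is DA over Pam3CSK4, with an SE of its absolute value over the root of the F statistic. The edgeR fit was checked on counts simulated from its own dispersions with few genes changed, which cannot test the choice of scaling. Intervals rest on 3 libraries a group, and a low count also carries counting error.

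The members, gene lists and tests were chosen with earlier results of these data known. The 9 members were named whatever their result, with 16 preset pathway genes (1 of them not reported here), and up to 2 genes per direction and list by smallest adjusted p. Alternatives were DESeq2 1.42.0 (size factors or Wald test), upper-quartile factors, scaling without the 50 most abundant genes, limma 3.58.1 on log2(FPKM + 1), with and without a minimum FPKM of 1 in 3 libraries, and on log2(FPKM + 0.1) with it, counts unfiltered or averaging 50 or more, a replicate block, and leaving out each library. The labels state no pairing, so the numbers were not taken as pairs. Deviations of same-numbered libraries correlated weakly (0.102, -0.025 and 0.035), which cannot settle whether they were paired. Coordinates are from GENCODE M21.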

Additional observations from a re-analysis of the deposited data

How the results depend on the processing

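H2-K1, H2-D1, H2-M3 and Erap1 kept their direction and their call under all 16 other settings of the fit. With upper-quartile factors, on log2(FPKM + 1), on log2(FPKM + 0.1) and on unfiltered log2(FPKM + 1), in that order, B2m was called higher at log2 fold changes of 0.195, 0.169, 0.169 and 0.169 and Tapbp at 0.206, 0.178, 0.179 and 0.178, so 4 of the 9 genes were called higher under each. Under the same 4 settings the call of Nlrc5 was lost, at -0.137, -0.151, -0.167 and -0.151, and Tap2, never called, turned positive at 0.0669, 0.0389, 0.0395 and 0.0389. The constitutive catalytic subunits had 2 genes higher and 0 lower under those 4 settings, and 2 higher with a mean count of at least 50. On FPKM, 5 class I regulators were lower under each of the 3 limma settings. The cause was not tested. Leaving out each library in turn gave Nlrc5 between -0.337 and -0.151, Tap1 between -0.012 and 0.0937, 1 to 2 constitutive catalytic genes higher and 0 to 1 lower, and 0 to 1 peptidase genes higher. Nlrc5 lost its call without DA replicate 2 or Pam3CSK4 replicate 2, and the members called lower were then 2. The split over all genes, 4043 higher and 3938 lower as reported, was 5055 and 3138 with upper-quartile factors.

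With the replicate number as a block, 4223 genes were higher and 4111 lower, no call of a member changed, 2 constitutive catalytic genes were higher, and Psme1 (-0.135) and Canx (0.118) were called. More genes were called with the block than without it, and every member had a lower edgeR adjusted p. Deviations of same-numbered libraries correlated at 0.102, -0.025 and 0.035, and those of other pairs from -0.126 to 0.0874. Whether the numbers mark pairs was therefore not settled. Among 36 other named genes, 543 of 576 values kept direction and side, and none reversed. Calls changed for Psmb8, Psme1, Canx, Psmb7 and Ide among others, and with upper-quartile factors Psmb8 (0.199) and Canx (0.232) were called higher. The members with the fewest counts, H2-M3 and Erap1, had 487 to 928 counts per library. For Tap1 and Tap2 the data leave room for changes up to the limits of their 95% intervals.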
